A study of Mus musculus with 12 samples.

Results

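Condensin and cohesin are ring-shaped complexes that fold chromosomes and hold sister chromatids together, and 10 of their subunit genes were followed here in ribosome footprints of mouse B lymphoma cells. The genes were Smc2, Smc4, Ncapd2, Ncapg, Ncaph, Ncapd3 and Ncapg2 of condensin and Smc1a, Smc3 and Rad21 of cohesin. The deposited tables list Ensembl gene IDs without names. The 10 genes were picked by ID, through a pairing of ID and symbol that came with the choice of members. The rule of choice used no measured value, but the set was proposed with earlier results of these data known. They are 10 of the 22520 IDs counted and 10 of the 6692 tested. The cells were a Flp-treated, reporter-negative subline of the line 19PP, which the labels trace to a Rag2-/-γC-/- mouse that received bone marrow of the genotype Cγ1-Cre; Myc/P110*flSTOP. Every group therefore shares this Myc and P110 background. Cells labelled RPL12 S38A, RPL12 S38D or WT were harvested in mitosis or while growing asynchronously, with 2 libraries in each of the 6 groups. The mitotic cells had 8 hr in 100 ng/mL nocodazole, which blocks the spindle, and 10 min in fresh medium. All cells were collected in cycloheximide at 100 µg/ml. RPL12 (uL11) sits in the large subunit of the ribosome, and its serine 38 is replaced by alanine in S38A and by aspartate in S38D. The labels give neither the number of clones behind a genotype nor separate cultures behind the paired libraries. A p-value here therefore weighs a difference against the spread of these libraries alone, and that spread may be technical.

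Both complexes are built on a pair of SMC proteins, long coiled-coil ATPases joined at one end, whose other ends are closed by a kleisin subunit. SMC2 and SMC4 form the core of condensin I and of condensin II. Condensin I adds the kleisin NCAPH and the HEAT-repeat proteins NCAPD2 and NCAPG, and condensin II uses related proteins, among them NCAPD3 and NCAPG2. Condensin II is in the nucleus through interphase, while condensin I reaches chromosomes after the nuclear envelope breaks down, and together they compact mitotic chromosomes. Cohesin, built on SMC1A and SMC3, extrudes loops in interphase and holds sister chromatids until separase cuts its kleisin RAD21 at anaphase. The kleisin of condensin II and the STAG subunits of cohesin were not analysed here.

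In the RefSeq annotation of GRCm38.p6, the shared condensin genes are Smc2 (ENSMUSG00000028312.19) on chromosome 4 from 52439221 to 52488365 and Smc4 (ENSMUSG00000034349.14) on chromosome 3 from 69004738 to 69034623. Those of condensin I are Ncapd2 (ENSMUSG00000038252.13) on chromosome 6 from 125168007 to 125192100, Ncapg (ENSMUSG00000015880.13) on chromosome 5 from 45669891 to 45700547 and Ncaph (ENSMUSG00000034906.15) on chromosome 2 from 127103809 to 127133954. Those of condensin II are Ncapd3 (ENSMUSG00000035024.16) on chromosome 9 from 27030165 to 27096522 and Ncapg2 (ENSMUSG00000042029.7) on chromosome 12 from 116405351 to 116463532, and those of cohesin are Smc1a (ENSMUSG00000041133.11) on chromosome X from 152016428 to 152061973, Smc3 (ENSMUSG00000024974.10) on chromosome 19 from 53600396 to 53645831 and Rad21 (ENSMUSG00000022314.9) on chromosome 15 from 51962604 to 51993538. The genes lie on 10 different chromosomes. The submitters' processing notes name the build mm10, and the positions were matched by symbol.

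Promoter windows of 300 bases (250 before the annotated start, 50 from it on) were at hand from RefSeq for 8 of the 10 members, all but Smc4 and Rad21, with 9 windows in all since Ncapd3 has 2. The start used for a window can lie inside the gene span given above, which covers all transcripts. They were searched on both strands for 3 motifs common in cell cycle promoters, which are TTTGAA (the CHR element), CCAAT (the CCAAT box) and GCGGGAA (an E2F site core). TTTGAA was in 5 of the 9 windows, against 17.9% of all 32851 windows of this length. CCAAT was in 4 of 9, against 37.4%, and GCGGGAA in 3 of 9, against 4.60%. These are matches of letters, and whether any factor binds there was not measured. The windows of Ncapg and Ncapg2, HEAT-repeat counterparts in condensin I and II, are shown because both hold TTTGAA shortly before the start, at base -30 in Ncapg and base -18 in Ncapg2 counted from the start. Both also hold GCGGGAA, and Ncapg has the reverse complement of CCAAT. Those of the cohesin partners Smc1a and Smc3 follow because Smc1a was called lower in mitotic libraries and Smc3 was not, as described further on. Whether the changes of these partners differed was not tested. Smc1a holds the reverse complements of CCAAT and GCGGGAA, and in Smc3 none of the 3 motifs was found. None was found in Ncaph either, which was called lower in mitotic libraries, while Ncapg2 was not called. Whether the motifs go with a change with state was not tested. Capitals mark the motifs on either strand. The windows are chr5:45669675-45669974, plus strand, for Ncapg, chr12:116405186-116405485, plus strand, for Ncapg2, chrX:152016178-152016477, plus strand, for Smc1a, and chr19:53600146-53600445, plus strand, for Smc3, all in GRCm38.p6.
Ncapg: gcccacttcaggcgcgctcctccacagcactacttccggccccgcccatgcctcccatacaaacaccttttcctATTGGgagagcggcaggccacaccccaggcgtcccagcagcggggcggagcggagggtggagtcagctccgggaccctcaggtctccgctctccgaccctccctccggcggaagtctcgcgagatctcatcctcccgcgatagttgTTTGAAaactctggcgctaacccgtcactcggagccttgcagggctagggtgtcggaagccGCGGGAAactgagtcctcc
Ncapg2: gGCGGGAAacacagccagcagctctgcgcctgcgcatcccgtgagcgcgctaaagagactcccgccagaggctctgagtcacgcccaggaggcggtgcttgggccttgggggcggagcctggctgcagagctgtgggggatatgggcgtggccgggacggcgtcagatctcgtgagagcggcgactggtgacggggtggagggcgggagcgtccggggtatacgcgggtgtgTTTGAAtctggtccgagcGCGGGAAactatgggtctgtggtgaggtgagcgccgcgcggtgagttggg
Smc1a: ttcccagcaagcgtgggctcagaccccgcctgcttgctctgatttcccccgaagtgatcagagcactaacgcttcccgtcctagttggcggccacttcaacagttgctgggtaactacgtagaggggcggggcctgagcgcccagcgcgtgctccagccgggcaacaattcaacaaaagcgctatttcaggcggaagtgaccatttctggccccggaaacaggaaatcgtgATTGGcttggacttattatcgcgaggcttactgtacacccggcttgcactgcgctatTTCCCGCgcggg
Smc3: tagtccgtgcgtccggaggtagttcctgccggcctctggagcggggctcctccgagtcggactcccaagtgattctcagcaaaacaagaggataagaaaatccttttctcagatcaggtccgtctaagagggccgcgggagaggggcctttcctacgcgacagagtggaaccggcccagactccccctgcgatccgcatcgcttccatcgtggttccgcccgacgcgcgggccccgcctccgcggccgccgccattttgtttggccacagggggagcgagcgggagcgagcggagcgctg

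The 12 libraries held 258354 to 505500 reads in coding sequence, of which the 10 members took 891 to 2679. A single member had between 22 reads (Ncapd3, S38D mitotic replicate 1) and 847 reads (Ncapd2, S38D asynchronous replicate 1). Levels are given as CPM, read counts scaled by TMM to one common library total. Since coding lengths were not at hand, levels of different genes are not compared with each other. A footprint level rises with the number of transcripts and with the ribosomes on each, and no RNA-seq was used here to part them. In each library it is also an average over the cell cycle phases present. Fewer cells in a phase and fewer footprints per cell therefore cannot be told apart. A level is also relative to the other genes of its library, and the number of footprints per cell was not measured. Every mitotic library, and no asynchronous one, came from nocodazole-treated cells, so state and drug cannot be told apart either. Uniquely aligned reads that fell outside the counted features made up 25.6 to 34.6% in mitotic and 18.0 to 25.8% in asynchronous libraries. Alignments to more than 1 place were 65.8 to 73.0% of all alignments counted in mitotic and 62.3 to 68.3% in asynchronous libraries. The part of these measures in the results was not tested. Since no other ID could be named, the level of RPL12 and the markers of B cells and other cell types were not looked up.

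The first comparison set mitotic against asynchronous libraries to find the subunits whose footprints differ with state. Averaged over the 3 genotypes, 6 of the 10 members fell, none rose and 4 did not pass the test. The 6 were Smc2 and Smc4, the core of both condensins, Ncapd2, Ncapg and Ncaph of condensin I, and Smc1a of cohesin. Their levels were between 1.40-fold (Ncapg) and 2.03-fold (Smc1a) lower in mitotic libraries. The condensin II subunits Ncapd3 and Ncapg2 and the cohesin subunits Smc3 and Rad21 did not pass. Among all 6692 genes tested, 20% were called lower and 18.9% higher in this comparison. The median log2 change was -0.54 over the members and -0.0145 over all genes tested. The test was edgeR's quasi-likelihood test with genotype and state as terms, at a Benjamini-Hochberg adjusted p under 0.05 over all genes tested. The summed level of the 10 genes was 3193 to 4714 CPM in mitotic and 4449 to 6988 CPM in asynchronous libraries, and the S38A mitotic libraries lay within the asynchronous range.

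**Figure D1:**
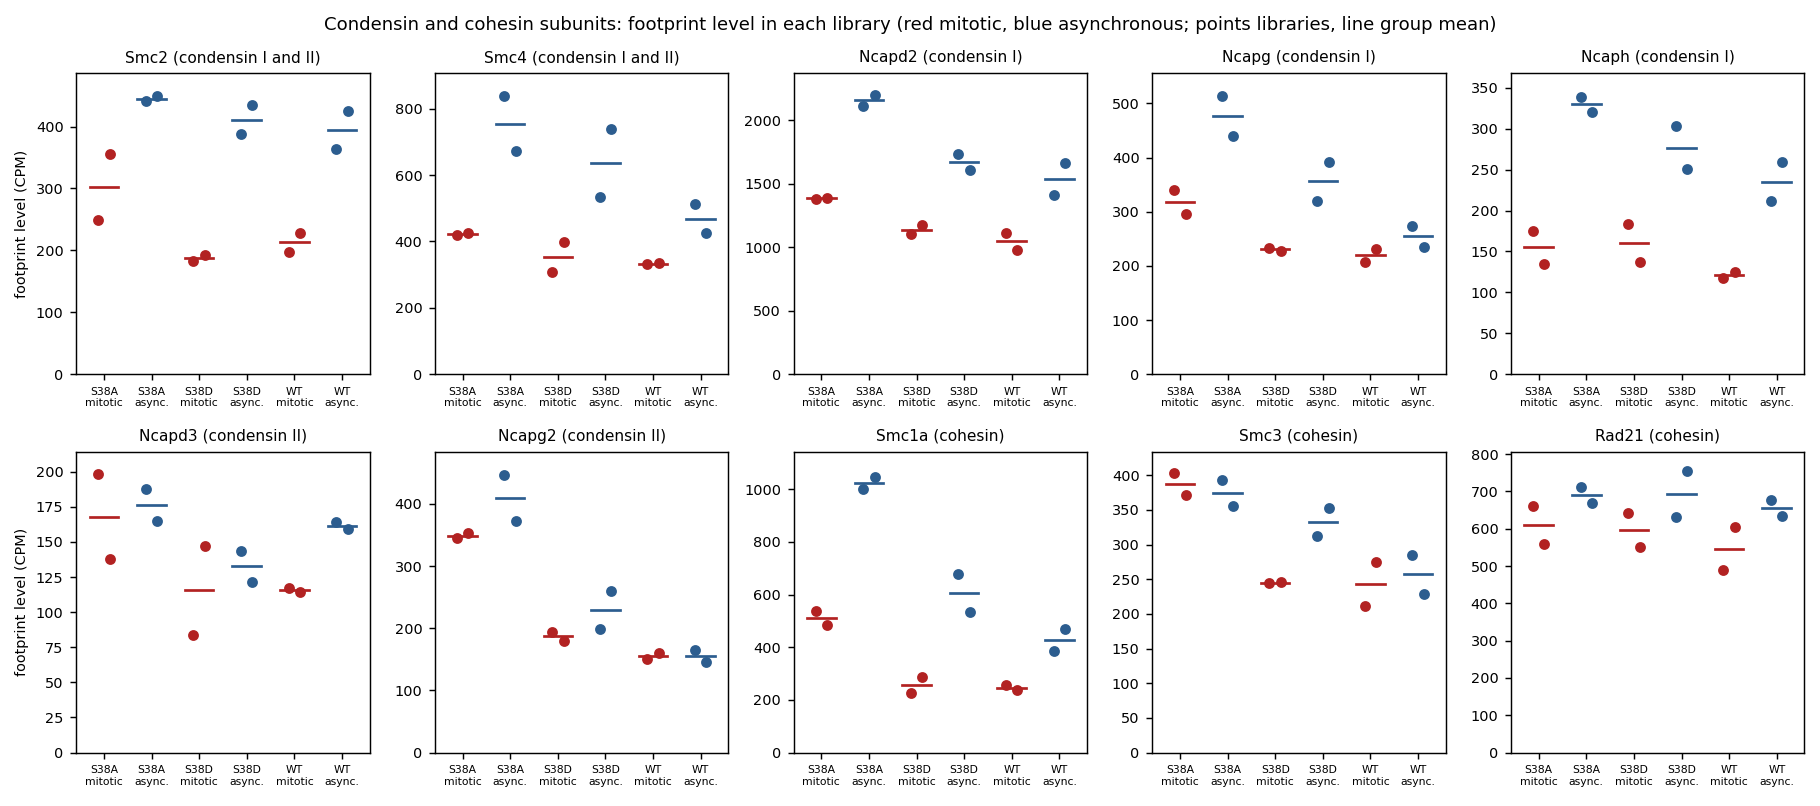
Footprint level (CPM, y axis from 0) of each subunit in the 12 libraries, by genotype and state (x axis), with points for libraries and lines for group means. Smc2, Ncapd2 and Ncaph separate all 6 mitotic (red) from all 6 asynchronous (blue) libraries, and for the other members the states overlap. For Smc2, Ncapd2, Ncapg, Ncapg2, Smc1a and Smc3, both S38A libraries lie above all S38D and WT libraries of the same state. By group mean alone, Smc4 and Ncapd3 are also highest in S38A cells within each state. The share of all genes with these patterns was not computed.

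Among the shared core genes, Smc2 fell in each genotype. In S38A cells Smc2 had 249.8 and 355 CPM in mitotic libraries, against 441 and 449.7 CPM in asynchronous ones. The S38D cells had 183 and 193 CPM in mitosis, against 388 and 434 CPM when asynchronous, and WT cells 198 and 228 CPM, against 364 and 425 CPM. All 6 mitotic values lay below all 6 asynchronous ones. Over the 3 genotypes its log2 change averaged -0.84 ± 0.11 (SE, edgeR adjusted p = 2.02e-08). Its partner Smc4 had an averaged log2 change of -0.73 ± 0.11 (SE, edgeR adjusted p = 8.38e-08). Mitotic S38A libraries held 420.3 and 426 CPM of Smc4, against 837 and 673 CPM in asynchronous S38A libraries. For S38D cells the Smc4 levels were 309 and 399.9 CPM in mitosis, against 533 and 738 CPM, and for WT cells 332 and 334 CPM in mitosis, against 512 and 425 CPM. For Smc4 the states did not overlap within any genotype, but 1 S38A mitotic library was above 1 WT asynchronous library.

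The condensin I subunits fell as well. The level of Ncaph was 175 and 135 CPM in mitotic S38A cells, against 339 and 320.3 CPM in asynchronous S38A cells. In S38D cells it was 183 and 137 CPM in mitosis, against 304 and 250.3 CPM, and in WT cells 117 and 124 CPM in mitosis, against 211 and 259 CPM without nocodazole. Ncaph, the kleisin, thus had lower values in every mitotic library than in any asynchronous one, and its averaged log2 change was -0.95 ± 0.12 (SE, edgeR adjusted p = 5.82e-09). For Ncapd2, mitotic S38A libraries gave 1382 and 1388 CPM, against 2116 and 2197 CPM in asynchronous ones. Mitotic S38D libraries gave 1103 and 1172 CPM, against 1738 and 1606 CPM, and mitotic WT libraries 1113 and 979.5 CPM, against 1411 and 1665 CPM, in asynchronous cells of the same genotype. The mitotic and asynchronous values of Ncapd2, a HEAT-repeat subunit, did not overlap either, with an averaged log2 change of -0.59 ± 0.08 (SE, edgeR adjusted p = 6.28e-08). Ncapg stood at 341 and 297 CPM in mitotic and 514 and 439.9 CPM in asynchronous S38A libraries. It stood at 233 and 228 CPM in mitotic and 320.1 and 392 CPM in asynchronous S38D libraries, and at 208 and 231 CPM in mitotic and 274 and 236 CPM in asynchronous WT libraries. The states of Ncapg, the other HEAT-repeat subunit, were separate within each genotype but overlapped between genotypes. Its averaged log2 change was -0.49 ± 0.11 (SE, edgeR adjusted p = 0.000321). Smc2, Ncapd2 and Ncaph were the 3 members whose 6 mitotic libraries all lay below the 6 asynchronous ones, as did 4.81% of all genes tested.

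The condensin II subunits Ncapd3 and Ncapg2, whose proteins are the counterparts of NCAPD2 and NCAPG in condensin I, did not pass the test. Ncapg2 averaged 349 ± 4.77 CPM in mitotic and 409 ± 52.4 CPM in asynchronous S38A libraries (SD, n = 2 each). In S38D cells the means were 187 ± 11.1 and 229 ± 42.5 CPM, and in WT cells 156 ± 6.89 and 155 ± 12.9 CPM, mitotic first (SD, n = 2 each). The averaged log2 change of Ncapg2 was -0.19 ± 0.12 (SE, edgeR adjusted p = 0.195), with a 95% interval of -0.42 to 0.04. For Ncapd3 it was -0.23 ± 0.14 (SE, edgeR adjusted p = 0.203), with an interval of -0.50 to 0.05. Its libraries ranged from 83.9 to 198 CPM in mitotic and from 122 to 188 CPM in asynchronous cells. Both intervals reach past 0, and both also hold falls, so a decrease of these genes is within the data. The Ncapd3 interval holds the averaged log2 change of Ncapg in condensin I, -0.49. Whether the changes of condensin I and condensin II subunits differed was not tested.

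Of the cohesin genes, Smc1a fell, with the lowest averaged log2 change of the 10 members, and the other 2 did not pass. In mitotic S38A cells Smc1a reached 537 and 485 CPM, against 1002 and 1048 CPM in asynchronous ones. Mitotic S38D cells had 225 and 288 CPM, against 679 and 534 CPM in asynchronous S38D cells, and mitotic WT cells 255 and 236 CPM, against 387 and 468 CPM in asynchronous WT cells. Within each genotype the mitotic values lay below the asynchronous ones, and only the high S38A mitotic values reached the asynchronous range of the other genotypes. The averaged log2 change was -1.02 ± 0.10 (SE, edgeR adjusted p = 5.19e-12). Smc3 was at 404 and 371 CPM in mitotic S38A libraries, against 394 and 356 CPM in asynchronous S38A ones. S38D cells gave 244 and 246 CPM in mitosis, against 312 and 352 CPM, and WT cells 211 and 275 CPM in mitosis, against 285 and 229 CPM. The states of Smc3, the partner of Smc1a in the ring, overlapped in S38A and WT cells and were separate in S38D cells. Its averaged log2 change was -0.14 ± 0.11 (SE, edgeR adjusted p = 0.332, 95% interval -0.36 to 0.08). The kleisin Rad21 ranged from 489.7 to 661 CPM in mitotic and from 632 to 755 CPM in asynchronous libraries. The averaged log2 change of Rad21 was -0.22 ± 0.10 (SE, edgeR adjusted p = 0.0656). Its 95% interval, not adjusted for the number of genes tested, was -0.40 to -0.03 and lay below 0. Leaving out a library gave Rad21 -0.26 to -0.16 (adjusted p = 0.0397 to 0.231), and it passed the threshold without S38D asynchronous replicate 1 (adjusted p = 0.0397) and without S38A mitotic replicate 1 (adjusted p = 0.0471). The 6 calls held in each of the 12 fits that left out a library and in the 5 other settings.

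**Figure D2:**
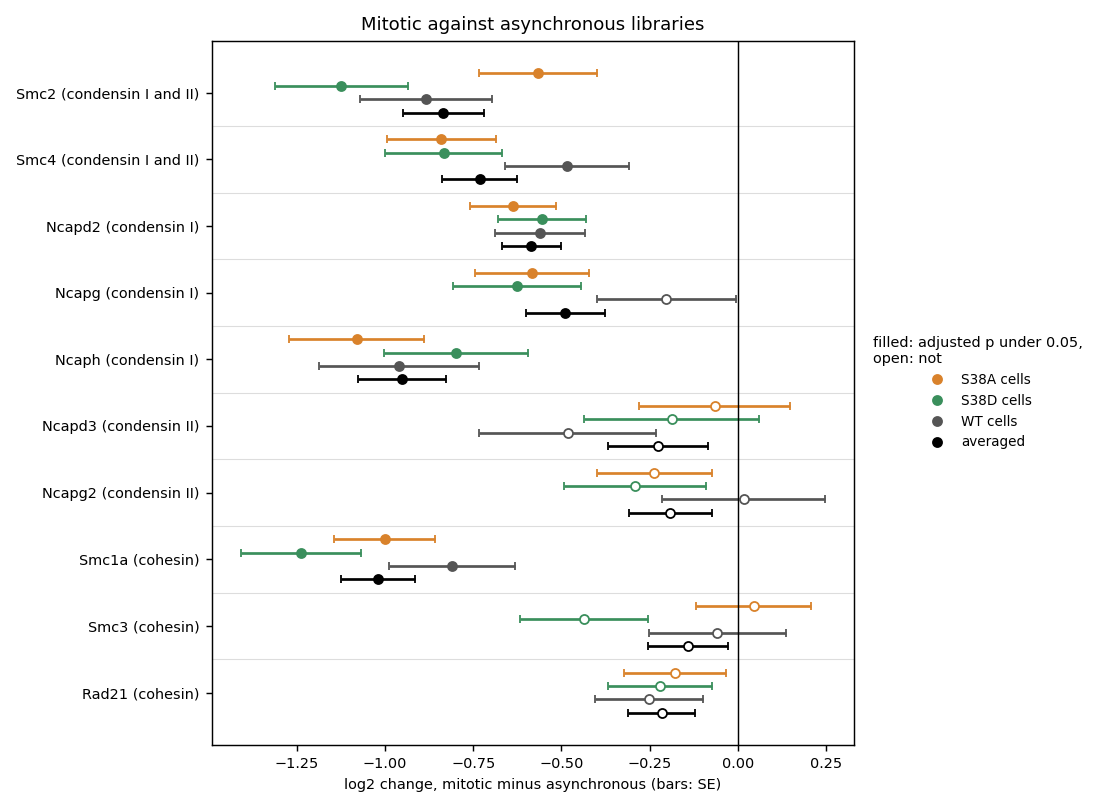
Log2 change from the fitted models, mitotic minus asynchronous (x axis, bars SE), for each subunit (rows) in S38A, S38D and WT cells and averaged over genotypes, with filled symbols where the adjusted p was under 0.05. Smc2, Smc4, Ncapd2, Ncaph and Smc1a are filled in all 4 rows, Ncapg in 3, and Ncapd3, Ncapg2, Smc3 and Rad21 in none.

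The same comparison within each genotype, which share no library, called 6 members lower in S38A cells, 6 in S38D cells and 5 in WT cells, and none higher. Over all genes tested, 9.59%, 10.9% and 9.26% were called lower. With 1 library of the genotype left out these shares were 5.23 to 6.10% in S38A, 4.98 to 9.63% in S38D and 4.55 to 7.26% in WT cells, lowest without S38A mitotic replicate 1, S38D mitotic replicate 2 and WT asynchronous replicate 2. Smc2, Smc4, Ncapd2, Ncaph and Smc1a were called in all 3 genotypes, and Ncapg in S38A and S38D cells. In WT cells Ncapg had a log2 change of -0.20 ± 0.20 (SE, edgeR adjusted p = 0.53). The libraries of the states did not overlap for 8 of the 10 members in each genotype, all of them lower in mitosis, as was so for 29.8%, 30.3% and 27.5% of all genes in S38A, S38D and WT cells. The Smc1a log2 changes were -1.0 ± 0.14, -1.24 ± 0.17 and -0.81 ± 0.18 (SE, edgeR adjusted p = 1.65e-07, 3.40e-08 and 0.000503) in S38A, S38D and WT cells. Those of Ncaph were -1.08 ± 0.19, -0.80 ± 0.20 and -0.96 ± 0.23 (SE, edgeR adjusted p = 1.57e-05, 0.00229 and 0.00108), in that order. Smc2 had -0.57 ± 0.17, -1.12 ± 0.19 and -0.88 ± 0.19 (SE, edgeR adjusted p = 0.0104, 3.64e-06 and 0.000291), Smc4 -0.84 ± 0.15, -0.83 ± 0.17 and -0.49 ± 0.18, and Ncapd2 -0.64 ± 0.12, -0.56 ± 0.12 and -0.56 ± 0.13 (SE). The 4 members without a call had log2 changes of -0.07, -0.19 and -0.48 for Ncapd3, -0.24, -0.29 and 0.02 for Ncapg2, 0.05, -0.44 and -0.06 for Smc3, and -0.18, -0.22 and -0.25 for Rad21.

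Several of these calls within a genotype were lost when a library was left out, which leaves 1 library in a group, or in another setting. In S38A cells the Smc2 call was lost without asynchronous replicate 1 or 2 (adjusted p = 0.059 and 0.0563) and without mitotic replicate 1, where its log2 change was -0.31 (adjusted p = 0.366, edgeR). The Ncapg call was lost in S38A cells without asynchronous replicate 1 or mitotic replicate 2 (adjusted p = 0.149 and 0.0975). In S38D cells it was lost without asynchronous replicate 2, mitotic replicate 1 or mitotic replicate 2 (adjusted p = 0.0887, 0.0774 and 0.115). Ncaph lost its call in S38D cells without mitotic replicate 2 (adjusted p = 0.167) and in WT cells without asynchronous replicate 2 (adjusted p = 0.0666). The Smc4 call in WT cells was lost on leaving out any of the 4 WT libraries (adjusted p = 0.0514 to 0.245) and without a filter on low counts (adjusted p = 0.0543). With DESeq2 the calls of Smc2 and Ncapg in S38A cells, of Ncapg in S38D cells and of Smc4 in WT cells were lost (adjusted p = 0.073, 0.0506, 0.0585 and 0.0936).

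Because partners share a complex, the ratio of their reads within a library was set side by side across libraries, as a description without a test and with the Smc1a pattern already seen. The Smc1a to Smc3 ratio was 1.33 and 1.31 in mitotic S38A libraries, against 2.54 and 2.95 in asynchronous ones. In S38D cells it was 0.922 and 1.17, against 2.18 and 1.52, and in WT cells 1.21 and 0.858, against 1.36 and 2.04. All 6 mitotic ratios lay below all 6 asynchronous ones. The ratio of the condensin partners Smc2 and Smc4 overlapped between states, at 0.482 to 0.832 in mitotic and 0.526 to 1.00 in asynchronous libraries. For Ncapg over its condensin II counterpart Ncapg2 the ratio was 0.986 and 0.842 in mitotic S38A libraries, against 1.15 and 1.18 in asynchronous ones. It was 1.20 and 1.27, against 1.61 and 1.51, in S38D cells and 1.38 and 1.44, against 1.67 and 1.61, in WT cells. It was thus lower in mitosis within each genotype and lower in S38A than in S38D and WT cells within each state. How often ratios of gene pairs outside this set separate in such ways was not computed. Ncapd2 over Ncapd3 overlapped between states, at 6.96 to 13.1 in mitotic and 8.60 to 13.3 in asynchronous libraries. The ratios are of reads not divided by coding length, so their size says nothing of the copies made of each protein.

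**Figure D3:**
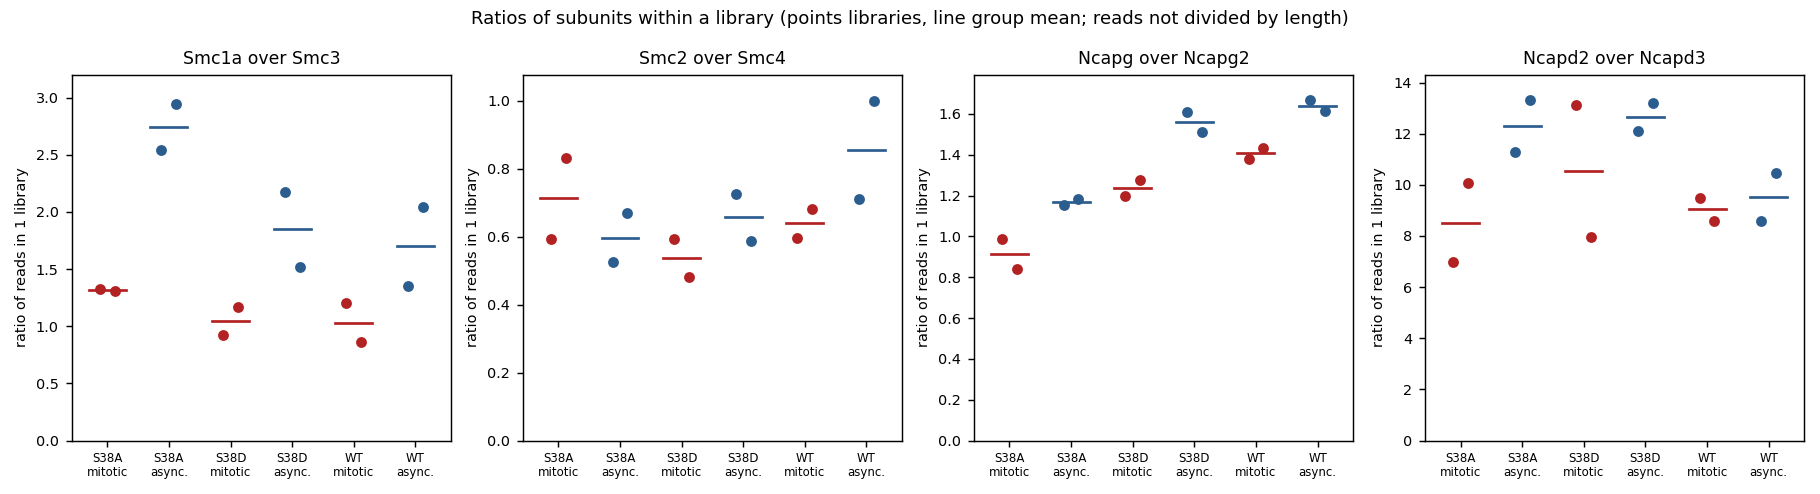
Ratio of reads of 2 subunits within a library (y axis from 0), for 4 pairs with related roles, by genotype and state (x axis), with points for libraries and lines for group means. The mitotic Smc1a to Smc3 ratios (red) are at most 1.33 and the asynchronous ones (blue) at least 1.36, while Smc2 over Smc4 overlaps between states.

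The next question was whether cells with a substitution at serine 38 had other footprint levels of these subunits than WT cells in the same state. In S38A cells 6 of the 10 members were higher than in WT cells when asynchronous and 5 when mitotic, and none was lower. Ncapd2, Ncapg, Ncapg2, Smc1a and Smc3 were called in both states, which share no library, and Smc4 in asynchronous cells. Of these, the asynchronous Smc3 call was lost in all 5 other settings and all 4 fits without a library, and the mitotic Ncapg call in all 4 fits without a library and with DESeq2. Of all genes tested, 5.86% were called higher among asynchronous S38A cells and 7.79% among mitotic ones. Leaving out a library gave 2.49 to 3.62% in asynchronous cells, lowest without S38A replicate 1, and 3.90 to 4.75% in mitotic cells, lowest without WT replicate 1. The median log2 difference of the members was 0.52 without and 0.51 with mitotic arrest, while it was 0.0088 and -0.0123 over all genes tested. For 9 members in each state, all but Rad21, both S38A libraries lay above both WT libraries. This was so for 25.9% of all genes in asynchronous and 27.9% in mitotic cells. Alignments to more than 1 place were fewer in S38A libraries, at 62.3 to 62.8% against 66.3 to 68.3% in asynchronous WT libraries and 65.8 to 70.4% against 73.0% in both mitotic WT libraries, and the part of this in the differences was not tested.

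The highest log2 difference was that of Ncapg2, a HEAT-repeat subunit of condensin II. It had 446 and 372 CPM in asynchronous S38A libraries, against 164 and 146 CPM in WT ones, a log2 difference of 1.41 ± 0.20 (SE, edgeR adjusted p = 2.11e-07). In mitosis S38A libraries had 346 and 352 CPM, against 151 and 161 CPM in WT ones, a difference of 1.16 ± 0.19 (SE, edgeR adjusted p = 3.99e-06). The S38A levels were 2.66-fold and 2.23-fold those of WT. Smc1a came next, with 1.25 ± 0.15 when asynchronous and 1.06 ± 0.17 in mitosis (SE, edgeR adjusted p = 4.45e-09 and 1.77e-06). Its group means were 1025 ± 32.8 CPM for asynchronous S38A cells and 427 ± 57.1 CPM for asynchronous WT cells (SD, n = 2 each). In mitosis they were 511 ± 37.0 CPM for S38A and 245 ± 13.5 CPM for WT cells (SD, n = 2 each). The calls of Ncapg2 and Smc1a held in each fit that left out a library and in every other setting.

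Among the condensin I subunits, Ncapg differed from WT by 0.92 ± 0.18 in asynchronous and 0.54 ± 0.18 in mitotic S38A cells (SE, edgeR adjusted p = 0.000136 and 0.0362). Ncapd2 differed by 0.48 ± 0.12 and 0.41 ± 0.13 (SE, edgeR adjusted p = 0.00452 and 0.0199). The kleisin Ncaph had 0.48 ± 0.19 and 0.36 ± 0.23 and did not pass (SE, edgeR adjusted p = 0.106 and 0.327). Of the shared core, Smc4 was 0.70 ± 0.16 higher in asynchronous S38A cells (SE, edgeR adjusted p = 0.00151), while Smc2 had 0.17 ± 0.17 (SE, edgeR adjusted p = 0.623). In mitotic cells neither passed (log2 difference 0.34 ± 0.17, adjusted p = 0.185 for Smc4 and 0.49 ± 0.19, 0.0706 for Smc2). Ncapd3 of condensin II had 0.13 ± 0.23 in asynchronous and 0.55 ± 0.23 in mitotic S38A cells and was not called (SE, adjusted p = 0.809 and 0.111). Cohesin's Smc3 had 404 and 371 CPM in mitotic S38A libraries, against 211 and 275 CPM in WT ones, a log2 difference of 0.66 ± 0.17 (SE, edgeR adjusted p = 0.0054). In asynchronous cells it was 0.56 ± 0.18 (SE, edgeR adjusted p = 0.0398). Rad21 was at 0.08 ± 0.15 and 0.15 ± 0.15 (SE, edgeR adjusted p = 0.824 and 0.563), with 95% intervals of -0.21 to 0.37 and -0.14 to 0.44.

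The asynchronous Smc3 call in S38A cells was lost in all 5 other settings and in all 4 fits without a library of these groups (adjusted p = 0.051 to 0.418), and with the replicate number as a block it had an adjusted p of 0.0515. In asynchronous cells the Smc4 call was lost without WT replicate 2 or S38A replicate 1 (adjusted p = 0.101 and 0.165). The Ncapd2 call was lost there without WT replicate 1 or S38A replicate 1 (adjusted p = 0.134 and 0.0514). In mitotic cells the Ncapg call was lost with DESeq2 (adjusted p = 0.135) and on leaving out any of the 4 libraries (adjusted p = 0.0566 to 0.28). That of Ncapd2 was lost without WT replicate 2, S38A replicate 1 or S38A replicate 2 (adjusted p = 0.207, 0.102 and 0.0916). That of Smc3 was lost without WT replicate 1 or S38A replicate 1 (adjusted p = 0.144 and 0.0845). The mitotic Smc2 difference was 0.73 (adjusted p = 0.0273) without S38A replicate 1 and 0.23 (adjusted p = 0.63) without S38A replicate 2.

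**Figure D4:**
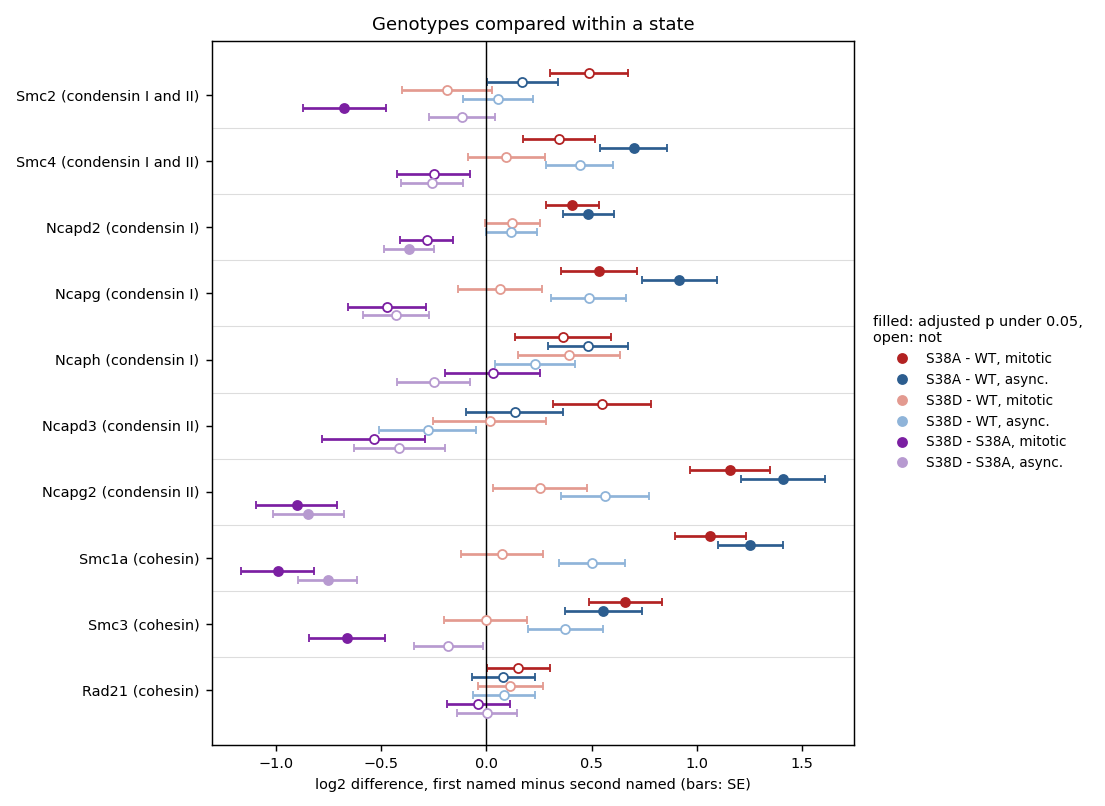
Log2 difference between genotypes from the fitted models (x axis, first named minus second named, bars SE) for each subunit (rows) within mitotic and asynchronous cells, with filled symbols where the adjusted p was under 0.05. S38A minus WT lies above 0 for each subunit in both states, and S38D minus WT has no filled symbol.

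In S38D cells no member passed the test against WT in either state, by edgeR or by DESeq2. Unadjusted p was under 0.05 for 5 members in asynchronous and for 0 in mitotic cells, and for 15.2% and 11.9% of all genes tested. After adjustment, 3.33% of all genes passed between asynchronous and 1.82% between mitotic cells of these genotypes. With a library left out the shares were 1.42 to 3.18% and 0.529 to 0.819%, lowest without WT asynchronous replicate 2 and S38D mitotic replicate 2. The lowest adjusted p was that of Smc1a in asynchronous cells, with 679 and 534 CPM in S38D libraries, against 387 and 468 CPM in WT ones. Its log2 difference was 0.50 ± 0.16 (SE, edgeR adjusted p = 0.0547), with a 95% interval of 0.20 to 0.81. Both S38D libraries lay above both WT ones. It passed without a filter on low counts (adjusted p = 0.0254). With single libraries left out it was 0.32 to 0.68 (adjusted p = 0.0111 to 0.399), lowest without S38D replicate 1 and highest, past the threshold, without S38D replicate 2. Smc4 and Ncapg2 had intervals of 0.13 to 0.75 and 0.16 to 0.97. The fits without a library gave 0.21 to 0.67 (adjusted p = 0.0111 to 0.67) for Smc4 and 0.38 to 0.76 (adjusted p = 0.0457 to 0.548) for Ncapg2. Both were lowest without S38D replicate 2 and highest, past the threshold, without S38D replicate 1. The other 2 with an unadjusted p under 0.05 were Ncapg and Smc3, at 0.49 ± 0.18 and 0.38 ± 0.18 (SE, edgeR adjusted p = 0.126 and 0.293). In mitotic cells the log2 differences of the 10 members ran from -0.19 (Smc2) to 0.39 (Ncaph). The mitotic intervals of Ncapg2 and Smc1a were -0.18 to 0.69 and -0.31 to 0.45, below the S38A estimates from the same WT libraries, 1.16 and 1.06.

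Set directly against S38A, S38D cells had 3 members lower in asynchronous cells (Ncapd2, Ncapg2 and Smc1a) and 4 in mitotic cells (Smc2, Ncapg2, Smc1a and Smc3), and none higher. Over all genes tested, 5.01% were called lower among asynchronous and 6.77% among mitotic S38D cells. Leaving out a library lowered these shares to 1.41 to 3.78% and 2.29 to 3.71%, lowest without S38A asynchronous replicate 1 and without S38D mitotic replicate 2. The other members had log2 differences from -0.43 to 0.00 when asynchronous and from -0.54 to 0.03 in mitosis. These comparisons use the same S38A libraries as those of S38A with WT, so they are no separate evidence on the S38A levels. Smc1a had 225 and 288 CPM in mitotic S38D libraries, against 537 and 485 CPM in S38A ones. Its log2 difference was -0.99 ± 0.17 in mitotic and -0.75 ± 0.14 in asynchronous cells (SE, edgeR adjusted p = 2.19e-05 and 0.000115). For Ncapg2 the differences were -0.90 ± 0.19 and -0.85 ± 0.17 (SE, edgeR adjusted p = 0.000509 and 0.000396). S38D values lay below S38A values in every library of the same state for both genes. In mitotic cells Smc3 and Smc2 had -0.66 ± 0.18 and -0.67 ± 0.20 (SE, edgeR adjusted p = 0.00792 and 0.0143). In asynchronous cells Ncapd2 had -0.37 ± 0.12 (SE, edgeR adjusted p = 0.0396), and with the replicate number as a block its adjusted p was 0.0535.

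The mitotic calls of Smc2 and Smc3 between the mutants were lost with DESeq2 (adjusted p = 0.0722 and 0.0598). Smc2 also lost its call without S38D replicate 1 or 2 (adjusted p = 0.144 and 0.123) and without S38A replicate 2, where its log2 difference was -0.40 (adjusted p = 0.337). Smc3 lost it without S38A replicate 1, S38D replicate 1 or S38D replicate 2 (adjusted p = 0.109, 0.0919 and 0.113). In asynchronous cells Ncapg2 lost its call without S38A replicate 1 (adjusted p = 0.0651). Ncapd2 lost it without a filter on low counts, with DESeq2, and without S38A replicate 1, S38A replicate 2 or S38D replicate 2 (adjusted p = 0.131, 0.0532, 0.162, 0.205 and 0.203). The asynchronous Ncapg difference ran over -0.57 to -0.29 (adjusted p = 0.0429 to 0.508) with a library left out, nearest 0 without S38D replicate 1 and past the threshold without S38D replicate 2.

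Whether the mitotic change itself differed between genotypes was tested as a difference of changes. No member passed for S38A minus WT, S38D minus WT or S38D minus S38A, by edgeR or by DESeq2, and unadjusted p was under 0.05 for 0, 0 and 1 members. Over all genes tested, 9.16%, 6.56% and 10.5% had an unadjusted p under 0.05, and 0.448%, 0.0598% and 0.239% were called after adjustment. With a library left out, the called shares were 0.273 to 0.573%, 0.0135 to 0.191% and 0.0576 to 0.503%, lowest without WT mitotic replicate 1, S38D mitotic replicate 1 and S38A mitotic replicate 1, and highest without WT asynchronous replicate 1 for the differences from WT and without S38D asynchronous replicate 2 for S38D minus S38A. The 1 member was Smc2, whose change was -0.56 ± 0.25 in S38D relative to S38A on the log2 scale (SE, edgeR adjusted p = 0.409). For Smc1a the differences of the change from WT were -0.19 ± 0.23 in S38A and -0.43 ± 0.25 in S38D cells (SE, edgeR adjusted p = 0.86 and 0.818), with 95% intervals of -0.64 to 0.26 and -0.92 to 0.06. For Ncapg, called lower in mitotic S38A and S38D but not WT cells, they were -0.38 ± 0.26 and -0.42 ± 0.27 (SE, edgeR adjusted p = 0.678 and 0.85). The 95% intervals of Ncapg were -0.88 to 0.12 and -0.95 to 0.11.

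Ordered by group mean, asynchronous S38A cells had the highest level of 8 members (Smc2, Smc4, Ncapd2, Ncapg, Ncaph, Ncapd3, Ncapg2 and Smc1a), mitotic S38A cells of Smc3 and asynchronous S38D cells of Rad21. The lowest mean was in mitotic WT cells for 7 members, in mitotic S38D cells for Smc2 and Ncapd3, and in asynchronous WT cells for Ncapg2. The highest group had libraries overlapping those of the next for Smc4, Ncapd3, Smc3 and Rad21. The 2 lowest groups had overlapping libraries for all members but Smc2 and Ncaph. How often such orders occur among all genes tested was not computed. For Smc1a the order was asynchronous S38A, asynchronous S38D, mitotic S38A, asynchronous WT, mitotic S38D and mitotic WT. In it the libraries of asynchronous S38D and mitotic S38A overlapped, as did those of mitotic S38D and mitotic WT. For Ncapg2 the order was asynchronous S38A, mitotic S38A, asynchronous S38D, mitotic S38D, mitotic WT and asynchronous WT, with overlap between neighbours for the WT groups alone. For Rad21 the libraries of each group overlapped those of the next in the order.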

How the data were processed

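Ribosome footprints were counted in 12 libraries. The authors deposited raw read counts per versioned Ensembl gene ID, 1 table a library. Its 5 summary rows entered neither library sizes nor tests. Per the submitters' processing notes, the tools were STAR 2.5.3a, Bowtie2 2.3.2, HTSeq 0.9.1, bcl2fastq 2.16.0.10 and DESeq2 1.18.1, with mm10 as build and no roles stated. That the features are coding sequences rests on file naming alone. Strand use and collapsing of identical reads are not given in the sources used here. Overlapping or near-identical genes may therefore share or lose reads.

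Tests used edgeR 4.0.16 in R 4.3.3 (quasi-likelihood, TMM, filterByExpr at a minimum count of 10), on 6692 genes. All 6 groups shared 1 model, and the averaged change came from genotype plus state. P-values were adjusted over all genes tested by Benjamini-Hochberg, with a threshold of 0.05. A standard error is the fitted log2 change divided by the root of F, and 95% intervals are normal ones. Alternatives were DESeq2 1.42.0, its size factors, library totals, no filter, a replicate block and leaving out each library. The single-member values under these were added after seeing the data. The fits were tested on simulated data. The chi-square per degree of freedom between paired libraries, near 1 under sampling noise alone, was 1.06 to 1.93. It was lowest in S38D mitotic (1.06) and WT mitotic (1.18) and highest in S38D asynchronous libraries. An excess over sampling noise was not tested. A floor of 3 reads is 5.93 to 11.6 CPM and covers counting error only.

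All 10 members are named, called or not. Members, lists and subunit pairs were proposed with earlier results of these data known. The lists of further pathway genes and cell type markers, and the genes most like the members in pattern, could not be named from the tables used here and are not reported.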

Additional observations from a re-analysis of the deposited data

How the results depend on the processing

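The averaged mitotic change kept its 6 calls with DESeq2 size factors, library totals, no filter, DESeq2 and the replicate block, and leaving out each library gave 6 to 7 members. Left out one at a time, libraries gave 3 to 4 members called for the mitotic change in WT, 4 to 5 in S38A and 4 to 6 in S38D cells. For S38A against WT they gave 3 to 5 in asynchronous and 3 in mitotic cells, for S38D against S38A 1 to 3 and 2 to 3, and for S38D against WT 0 to 2 and 0. The 3 differences of the mitotic change stayed at 0 members. The counts of 3 and 1 in asynchronous cells came without S38A asynchronous replicate 1, and the 3 in WT without WT asynchronous replicate 2. The 3 for S38A against WT, mitotic, came without any of its 4 libraries, the 2 for S38D against S38A, mitotic, without S38D mitotic replicate 1 or 2, and the 2 for S38D against WT, asynchronous, without S38D asynchronous replicate 1. Without a filter 1 member (Smc1a) was called in S38D against WT, asynchronous, and DESeq2 called 2 members (Ncapg2 and Smc1a) in S38D against S38A, mitotic. DESeq2 gave no adjusted p for 1 member in each comparison of S38D with WT and for 3 in the change of S38A minus that of WT.

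No called log2 change turned its sign in any setting. The 8 values of single members that turned outside the fits without a library were all near 0 and not called. They were Ncapg2 in the WT mitotic change (-0.0107 with DESeq2 size factors, -0.0136 with DESeq2), Ncapd3 in S38D against WT, mitotic (-0.0363 with library totals), Smc3 there (0.0390 with size factors, 0.00698 without a filter, 0.0435 with DESeq2) and Rad21 in S38D against S38A, mitotic (0.00706 with size factors, 0.00802 with DESeq2). The cause was not tested. Another 9 turned among the differences of the mitotic change, and 59 of 508 values of uncalled members turned on leaving out a library, to at most 0.41 from 0, and none was called. These single-member values were added after seeing the data.

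Replicate numbers did not pair the libraries the same way across groups. Deviations from the group mean correlated at -0.311 to 0.114 across genes over 15 pairs of groups, above 0.1 in 2 of them. The 2 lowest were -0.311 for asynchronous WT with asynchronous S38D and -0.192 for asynchronous S38A with asynchronous S38D. A grouping of libraries other than by replicate number was not tested, and the replicate block does not cover it. With the replicate block, 5 members were called for S38A against WT, asynchronous, and 2 for S38D against S38A, asynchronous, and it changed no other count.

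Over all genes, DESeq2 called 608 genes, against 1231 by edgeR, for the mitotic change in WT, 565 against 1246 in S38A and 749 against 1435 in S38D cells. It called 238 against 624, 66 against 223 and 152 against 583 for S38A against WT, S38D against WT and S38D against S38A in asynchronous cells, and 350 against 885, 58 against 122 and 361 against 864 in mitotic cells. For the difference of the mitotic change, S38D minus WT, edgeR called 4, 7 without a filter and DESeq2 2, and for S38D minus S38A 16, 38 and 3. A member had 22 to 847 reads in a library, with 2 libraries a group, and a change that missed the threshold is not shown to be absent.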
